A study of Mus musculus with 4 samples.

Results

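The genes described here are the microRNA genes Mir335 and Mir497, the gene Mest that hosts Mir335, and Mir195, the partner of Mir497 in a tandem of microRNA genes. They were chosen by symbol from the annotation column of a whole-transcript mouse gene array, and each of the 4 symbols matched 1 transcript cluster (the set of probes that the array sums into 1 value) of 33793. The rule itself uses no measured value, but it takes precursors that the study relates to Npas4 and Serpinb1a, transcripts picked on these same arrays. The arrays measured whole-brain RNA of 129SV mice, all female and adult and untreated as far as the labels say, with 2 arrays labelled wild type and 2 labelled Adar2-/-. The Adar2-/- brains lack the RNA editing enzyme ADAR2, encoded by Adarb1, in every cell type. The methods of the study state that the knockout animals also carry a Gria2 allele that encodes the edited R form of the glutamate receptor subunit (Gria2 R/R), which keeps them alive, and that controls were siblings of the same background, so that both genotypes shared this allele. The labels do not say whether each array stands for 1 animal, and all p-values below measure only the spread between these arrays.

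ADAR2 turns adenosines of RNA duplexes into inosines, and hairpins of primary microRNA transcripts are among its substrates. A microRNA gene is transcribed as part of a longer RNA, from which the nuclease DROSHA releases a hairpin and DICER a duplex of mature strands, and the loaded strand finds target mRNAs mainly through its seed, the short stretch near its 5′ end. Mest is an imprinted gene, active on the paternal chromosome, that encodes a hydrolase-like protein of the endoplasmic reticulum, and Mir335 lies in one of its introns. Mir497 and Mir195 are transcribed from 1 primary RNA and belong to the miR-16 family, known for its action on cyclins and other regulators of the cell cycle and of apoptosis. The study relates miR-335-5p to the mRNA of the neuronal transcription factor NPAS4, and miR-497 to that of the protease inhibitor SERPINB1A.

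The mature sequences are shown because they separate the members into different target classes. Seeds (bases 2 to 8 from the 5′ end) are in capitals, and all sequences are those of RefSeq on the GRCm38.p6 assembly.
miR-335-5p: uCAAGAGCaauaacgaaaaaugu
miR-335-3p: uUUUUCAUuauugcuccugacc
miR-497a-5p: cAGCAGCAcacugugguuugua
miR-497a-3p: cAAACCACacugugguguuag
miR-195a-5p: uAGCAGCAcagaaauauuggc
miR-195a-3p: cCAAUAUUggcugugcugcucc
The 5p strands of Mir497 and Mir195 had the same seed, and over the 21 positions that both share, counted from the 5′ end, 12 held the same base, with an unbroken run from position 2 to 10. That seed occurred in 10 of 1679 mature mouse names of the table. The seed of miR-335-5p occurred in 1, its own.

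The relatives of miR-497a-5p are shown because their precursors are compared further on, other than that of miR-322-5p, whose precursor symbol matched no cluster of the file. Capitals again mark bases 2 to 8, and in miR-103 and miR-107 the same letters lie 1 base closer to the 5′ end.
miR-15a-5p: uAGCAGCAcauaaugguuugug
miR-15b-5p: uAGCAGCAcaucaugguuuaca
miR-16-5p: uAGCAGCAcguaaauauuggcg
miR-322-5p: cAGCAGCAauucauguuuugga
miR-103-3p: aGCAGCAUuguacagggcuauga
miR-107-3p: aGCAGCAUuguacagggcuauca

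The hairpins are shown because they are what the array's precursor probes cover, with both mature arms in capitals.
Mir335: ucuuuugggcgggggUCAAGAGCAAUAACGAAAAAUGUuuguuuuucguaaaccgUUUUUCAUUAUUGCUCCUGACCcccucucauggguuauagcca
Mir497: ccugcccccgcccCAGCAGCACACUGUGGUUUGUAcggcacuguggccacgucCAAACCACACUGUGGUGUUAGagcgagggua
Mir195: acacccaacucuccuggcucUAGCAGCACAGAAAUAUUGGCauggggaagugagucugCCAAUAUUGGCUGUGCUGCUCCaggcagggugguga
Mir335 is annotated on the plus strand at chr6:30741299-30741396 (98 bases), Mir497 at chr11:70234717-70234800 (84 bases, plus strand) and Mir195, named Mir195a in RefSeq, at chr11:70235042-70235135 (94 bases, plus strand). The file's spans for these precursors equal the RefSeq spans base for base. G and C made up 42.9% of the Mir335 hairpin, 61.9% of that of Mir497 and 54.3% of that of Mir195. The whole of the Mir497 hairpin lies inside the 125-base Mir497b hairpin annotated on the other strand.

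The values are normalized log2 signals, on which a difference of 1 is a doubling. A precursor cluster reports any RNA that holds the hairpin, so primary transcript, host intron and free hairpin cannot be told apart, and mature strands are not what it measures. As a mark of background, 4 Y-linked clusters (Ddx3y, Eif2s3y, Kdm5d and Uty), which have no gene to report in female mice, had signals between 3.49 and 4.40 over the 4 arrays. Signals of different clusters rest on different probes, so levels are not compared between clusters below, other than against this background range, and comparisons are of differences between arrays. In bulk tissue, fewer cells of a type and less RNA per cell cannot be told apart.

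The arrays were close to each other over all clusters, with medians between 6.03 and 6.09 and a Pearson correlation of 0.9946 between the wild-type arrays, 0.993 between the Adar2-/- arrays and 0.993 to 0.9944 across genotypes (across clusters, which are not independent replicates). Adarb1 had signals of 10.50 and 10.45 in wild type and 9.16 and 8.96 in Adar2-/-, lower on both knockout arrays as labelled. Markers of neurons (5 clusters) had means of 11.3 to 11.4 on the arrays and a median difference of -0.025. The array of Adar2-/- replicate 2 had a mean of 7.29 over 4 olfactory bulb markers (Eomes, Th, Doc2g and Cdhr1) against 7.87 to 8.07 on the other arrays. Markers of pituitary, a gland outside the brain, were higher in Adar2-/- for 8 of 8 clusters, with differences from 0.01 to 4.115 (Prl, for prolactin) and a median of 0.2925. Of these, 3 had an unadjusted limma p below 0.05 (37.5%), and the genotypes did not overlap in 5 (62.5%, against 34.1% of all clusters). In limma, no cluster of 33793 had an adjusted p below 0.05 (0% called), while 2009 had an unadjusted p below 0.05 (5.95%), 1230 of them higher in Adar2-/- (3.64%) and 779 lower (2.31%).

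Of the 4 members, the Mir497 precursor cluster alone had an unadjusted limma p below 0.05, against 5.95% of all clusters, and no member had an adjusted p below 0.05. It was lower in Adar2-/- brain. Its neighbour Mir195 and the pair of Mir335 and Mest had values that overlapped between the genotypes. In 34.1% of all clusters, and in 33.3% of 585 microRNA precursor clusters, the genotypes did not overlap.

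Mir335 (cluster 17456963, 7 probes) had signals of 4.64 and 4.94 in wild type replicates 1 and 2 and of 4.88 and 4.58 in Adar2-/- replicates 1 and 2. The lowest and the highest value thus straddled the genotypes, and all 4 arrays lay above the Y-linked range, by 0.18 to 0.54. The means were 4.79 ± 0.21 for wild type and 4.73 ± 0.21 for Adar2-/- (each SD, n = 2). The difference was -0.06 (SE 0.16, 95% interval -0.46 to 0.34), with an adjusted p of 0.976 in limma. The gap between the 2 arrays of a genotype was 0.30 in wild type and 0.30 in Adar2-/-, wider than the difference between the genotypes. A difference at least as large in size was found in 69.1% of all clusters. The interval leaves room for a change of the precursor in either direction.

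Mest (cluster 17456934, 33 probes, plus strand of chromosome 6 from 30723547 to 30748466) had signals of 9.81 and 9.92 in wild type and of 9.84 and 9.96 in Adar2-/-. Each genotype had 1 array near the lower and 1 near the higher of these values, and all were at least 5.41 above the Y-linked range. The means were 9.87 ± 0.078 for wild type and 9.90 ± 0.085 for Adar2-/- (each SD, n = 2). The difference was 0.035 (SE 0.11, 95% interval -0.24 to 0.31; -0.005 with median centring), with an adjusted p of 0.981 in limma. At 0.11 and 0.12, the gaps between arrays of 1 genotype exceeded it.

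Mir335 starts 17752 bases after the start of the Mest cluster and ends 7070 bases before its end, on the same strand. To ask whether the precursor and its host changed unequally, the Mest signal was taken from that of Mir335 on each array, which gave -5.17 and -4.98 in wild type and -4.96 and -5.38 in Adar2-/-. These values have no meaning as levels, and only their shift between genotypes is read. The Adar2-/- values lay on either side of both wild-type values. The shift was -0.095, with a two-sided exact permutation p of 1.0.

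Mir335 and Mest were set beside other precursors that lie within a host gene. The pairs were listed from general knowledge, with earlier results of these data known. Of 34 such pairs, 33 had the precursor inside the host's cluster on the same strand, with 28 hosts. The change of precursor and host had the same sign in 13 pairs and opposite signs in 19, Mir335 and Mest among the latter. The unequal change had a median size of 0.23 over the 33 pairs (0.045 to 0.685), and that of Mir335 and Mest was the 5th smallest. Precursors had a median change of 0.16 in size and hosts of 0.1175, and an unadjusted limma p below 0.05 was reached by 5 of the 33 precursors (8.72% of all precursor clusters) and by 1 of the 28 hosts (5.95% of all clusters).

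**Figure D1:**
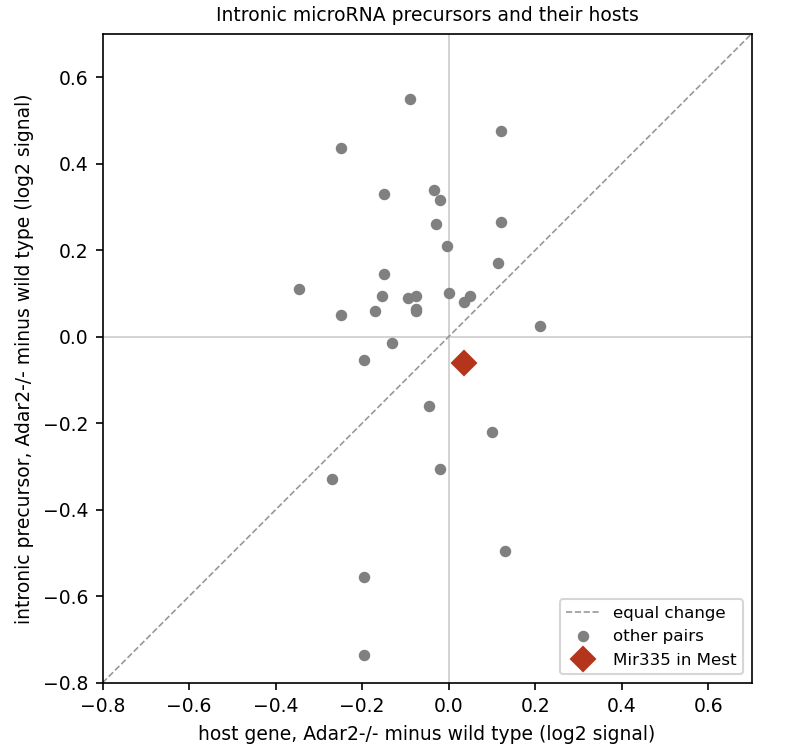
Log2 difference between Adar2-/- and wild type of 33 precursors (y axis) against that of the host gene in which each lies (x axis). The dashed line marks equal change. Mir335 in Mest (red diamond, -0.06 and 0.035) lies close to the origin, whereas the other precursors spread further along the y axis than their hosts along the x axis.

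Mir497 (cluster 17252009, 22 probes) had signals of 4.93 and 4.84 in wild type and of 4.66 and 4.31 in Adar2-/-. Both Adar2-/- arrays were below both wild-type arrays. Replicate 2 of Adar2-/- was the lowest and the only one of the 4 inside the Y-linked range. The means were 4.89 ± 0.064 for wild type and 4.49 ± 0.25 for Adar2-/- (each SD, n = 2). The difference was -0.40 (SE 0.15, 95% interval -0.76 to -0.039), a signal 1.32-fold lower, with an unadjusted limma p below 0.05 and an adjusted p of 0.834 over all clusters. A difference of this size or larger was found in 3.78% of clusters.

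The spread of Mir497 was uneven between the genotypes. Its 2 wild-type arrays were 0.09 apart, and 65.5% of all clusters had a gap at least this wide in wild type. Its 2 Adar2-/- arrays were 0.35 apart, and 12.6% of clusters had such a gap there. Leaving out Adar2-/- replicate 2 gave a difference of -0.225, and leaving out Adar2-/- replicate 1 gave -0.575. The unadjusted limma p was above 0.05 without Adar2-/- replicate 2, without wild type replicate 1 and without wild type replicate 2, and below it without Adar2-/- replicate 1. Adar2-/- replicate 2, where Mir497 was lowest, was also the array with the lowest olfactory bulb markers (7.29 against 7.87 to 8.07), and the part of this in the result was not tested.

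Mir195 (cluster 17252011, 24 probes) follows Mir497 after a gap of 241 bases. Its signals were 4.20 and 3.78 in wild type and 4.03 and 3.76 in Adar2-/-. All 4 lay inside the Y-linked range, the genotypes overlapped, and replicate 1 was the higher array of both. The means were 3.99 ± 0.30 for wild type and 3.90 ± 0.19 for Adar2-/- (each SD, n = 2), with a difference of -0.095 (SE 0.18, 95% interval -0.53 to 0.34) and an adjusted p of 0.96 in limma. The wild-type gap of 0.42 was among the wider ones, reached by 7.13% of clusters. At a signal no higher than that of Y-linked clusters in female brain, the values show neither a decrease of Mir195 nor its absence. Such low signals were common for precursors, since 187 of 585 had no array above the Y-linked range and 344 had all 4 above it.

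The Mir195 signal was also taken from that of Mir497 on each array. This gave 0.73 and 1.06 in wild type and 0.63 and 0.55 in Adar2-/-, without overlap. The shift was -0.305, and the two-sided exact permutation p of 0.33 is the smallest that 2 arrays against 2 allow, so no outcome of this test could have passed the threshold. As Mir195 was not above the Y-linked range on any array, the shift shows neither equal nor unequal change of the precursors.

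The genes around the Mir497 locus were examined next. Bcl6b, which encodes a zinc finger repressor of transcription, lies 4918 bases from Mir497, and its signals were 6.25 and 6.40 in wild type and 6.03 and 6.19 in Adar2-/-, a difference of -0.215 (SE 0.12). The transcript 0610010K14Rik lies 68 bases from Mir195, with 9.36 and 9.55 in wild type and 9.28 and 9.20 in Adar2-/-, also a difference of -0.215 (SE 0.12). Neither genotype overlapped the other in these flanking genes, as in 34.1% of all clusters. The adjusted p was 0.848 for Bcl6b and 0.846 for 0610010K14Rik in limma. Rnasek, for a protein associated with the vacuolar ATPase, had overlapping values (11.18 and 11.36, then 11.14 and 11.19) and a difference of -0.105. These 3 were singled out after their values were seen, and all lie on the minus strand, opposite to Mir497 and Mir195. The next nearest genes were Alox12, with a difference of -0.01, Slc16a13 with -0.015 and Slc16a11 with 0.135.

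Of 69 other clusters within 500 kb of Mir497, 34 were higher and 32 lower in Adar2-/-, with a median difference of 0.00 against 0.005 over all clusters. An unadjusted limma p below 0.05 was reached by 2 (2.9%), both higher in Adar2-/-. The genotypes did not overlap in 24 (34.8%), close to the share among all clusters. The difference of Mir497 (-0.40) lay outside the range of these neighbours, -0.29 to 0.465, but inside that of the clusters within 1 Mb, -0.495 to 0.465. The upper end was Clec10a, a lectin receptor of macrophages, with 4.67 and 4.62 in wild type and 4.99 and 5.23 in Adar2-/- (limma, unadjusted p below 0.05, adjusted p = 0.834). Within 1 Mb there were 123 clusters, of which 3 were higher and 3 lower at an unadjusted p below 0.05.

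Around Mest, 28 other clusters lay within 500 kb, 15 higher and 13 lower in Adar2-/-, with a median difference of 0.0075 and a range of -0.195 to 0.395. An unadjusted limma p below 0.05 was reached by 1 of them (3.57%), a cluster without a gene symbol, and the genotypes did not overlap in 9 (32.1%). Copg2, named for its position, is a coat protein gene whose cluster overlaps that of Mest by 913 bases on the opposite strand. It had 9.87 on both wild-type arrays and 9.79 on both Adar2-/- arrays. Its difference was -0.08 (SE 0.10), with an adjusted p of 0.935 in limma.

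**Figure D2:**
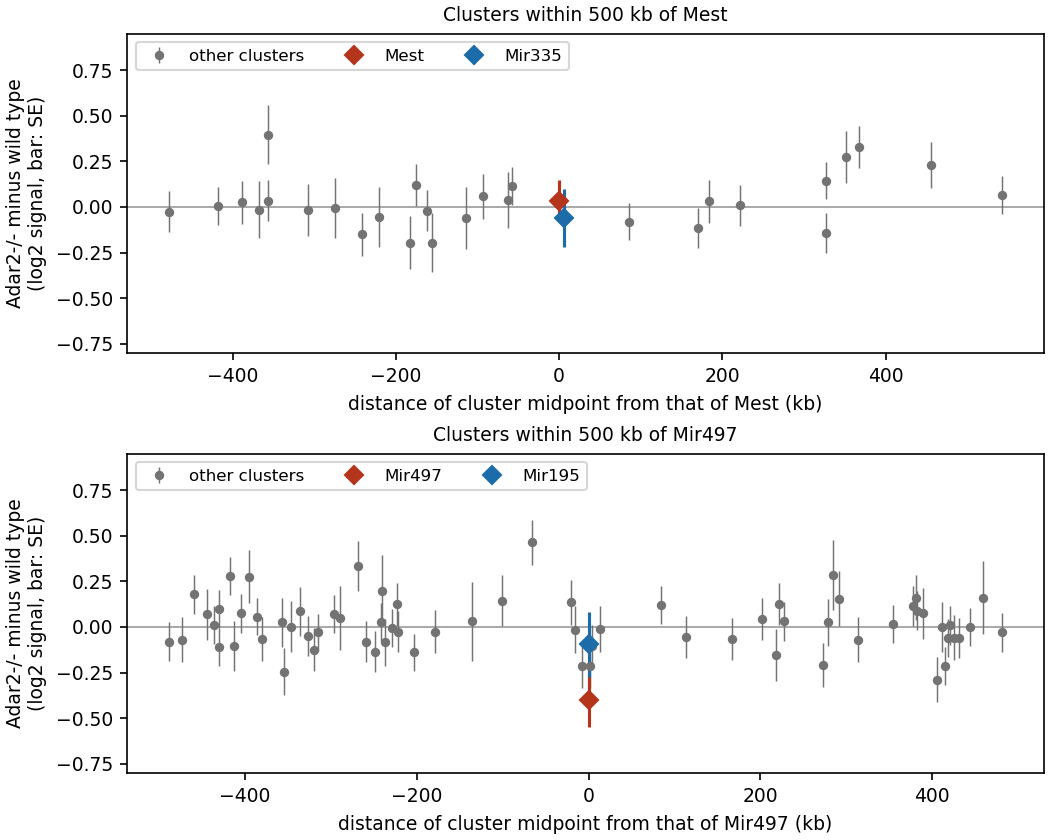
Log2 difference between Adar2-/- and wild type (y axis, bars are the limma SE) of clusters within 500 kb of Mest (top) and of Mir497 (bottom), by the distance of the cluster's midpoint (x axis, kb). Coloured diamonds are the members and grey points the 28 and 69 other clusters. Mir497 lies below every neighbour, and Mest and Mir335 lie among theirs.

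Since Mest is imprinted, other imprinted genes were taken as a reference. Of 26 listed symbols 25 were on the array, with 36 clusters, of which none had an unadjusted limma p below 0.05 or an adjusted one, against 5.95% of all clusters unadjusted. The unadjusted count was 3 without wild type replicate 2 and 1 without Adar2-/- replicate 1. In Adar2-/-, 20 were higher and 16 lower (17 and 19 with median centring), the median difference was 0.0325 (-0.0075 with median centring) and the range -0.295 to 0.23. The difference of Mest, 0.035, was near that median. Clusters were taken by symbol, and a Meg3 cluster on chromosome X and a Snrpn cluster on chromosome 14 lie away from these genes. Plagl1, Meg3, Peg3, Nnat and Rtl1 have clusters on both strands, so some are antisense to the gene.

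The listed precursors of the miR-16 family, together with those of miR-103 and miR-107, did not differ in 1 direction. The list does not hold every name with the seed of miR-497a-5p, and it holds Mir503, whose seed differs in its last base. Of 11 symbols 9 had a cluster. At an unadjusted limma p below 0.05, Mir16-2 and Mir107 were higher in Adar2-/- and Mir497 was lower, and in none was the adjusted p below 0.05. Without the members, 5 of 7 clusters were higher and 1 lower, with a median of 0.095 (0.045 to 0.34 on leaving out 1 array, 0.0437 with quantile normalization and 0.055 with median centring) against 0.045 over all precursor clusters, of which 8.72% had an unadjusted p below 0.05.

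Mir107 had signals of 6.65 and 6.66 in wild type and 7.02 and 7.24 in Adar2-/-, a difference of 0.475 (SE 0.12, limma, unadjusted p below 0.05, adjusted p = 0.834). Its probes are annotated as able to bind other transcripts. Its host Pank1, a pantothenate kinase gene, differed by 0.12. Mir16-2 had 5.02 and 4.84 in wild type and 5.54 and 5.19 in Adar2-/-, a difference of 0.435 (SE 0.15, limma, unadjusted p below 0.05, adjusted p = 0.834). Both Adar2-/- arrays were above both wild-type arrays in each of these precursors, the reverse of Mir497.

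Smc4, the condensin subunit gene that hosts Mir16-2, had a difference of -0.25 (limma, adjusted p = 0.844). Mir15b, which lies beside Mir16-2 in that host, had signals of 2.50 to 2.59, below the Y-linked range. Mir15a had 8.62 to 8.79 and a difference of 0, and Mir16-1 beside it had one of 0.29 (limma, adjusted p = 0.835). So within the tandems Mir15a with Mir16-1, Mir15b with Mir16-2 and Mir497 with Mir195, the cluster with the larger difference was in each case accompanied by a partner that differed by less than 0.10. The partners Mir15b and Mir195 had no array above the Y-linked range, and this arrangement was noticed after the values were seen. Of the 7 non-member precursors, 0 had an unadjusted limma p below 0.05 on leaving out either wild-type array, 1 did without Adar2-/- replicate 1 and 3 did without Adar2-/- replicate 2.

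**Figure D3:**
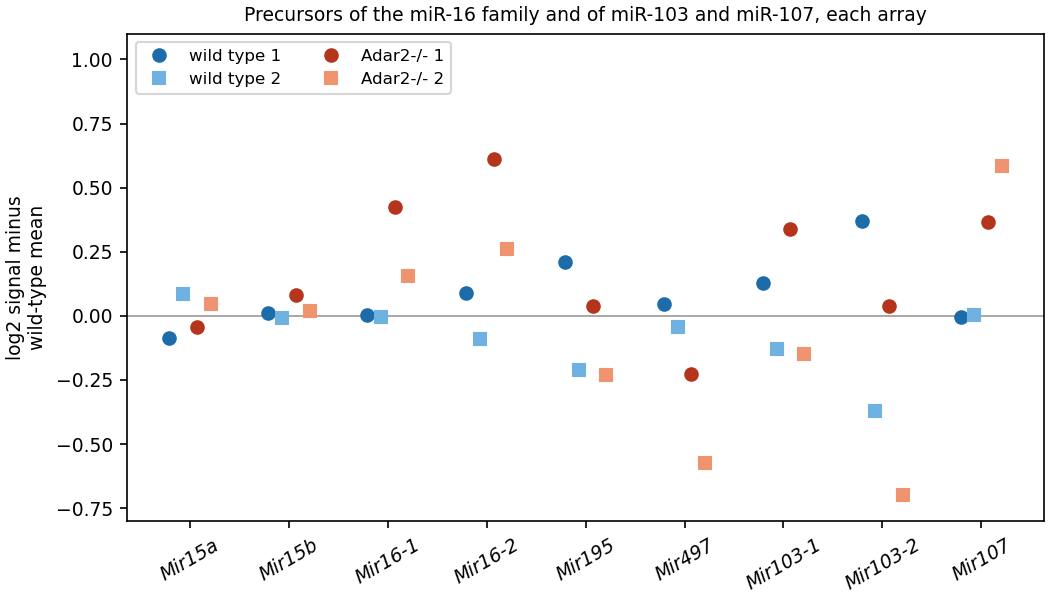
Log2 signal on each array minus the wild-type mean of the same cluster (y axis) for 9 precursors of the miR-16 family and of miR-103 and miR-107 (x axis), with blue for wild type, red for Adar2-/-, circles for replicate 1 and squares for replicate 2. Both red points are above the blue ones for Mir15b (by little, and below the Y-linked range), Mir16-1, Mir16-2 and Mir107 and below them for Mir497.

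Transcripts known as targets of the members' mature strands were listed from general knowledge, with earlier results of these data known. They were examined by symbol, and 1 cluster each of Sox4 and Bcl2 proved to lie on the strand opposite to the gene. For miR-335-5p, 8 listed genes had 10 clusters, of which 9, the antisense Sox4 cluster among them, were lower and 1 higher in Adar2-/-. Over all clusters 16133 were lower and 17164 higher. The list had a median of -0.1125 against 0.005 over all clusters. The median was below 0 in each alternative that could move it (other scalings, brighter clusters, 1 array left out), from -0.195 to -0.066. Only Tnc, for the extracellular matrix protein tenascin C, had an unadjusted limma p below 0.05 (1 of 10 clusters, against 5.95% of all), and the count was 3 without Adar2-/- replicate 1 and 2 with median centring. Its signals were 7.22 and 7.25 in wild type and 6.79 and 6.88 in Adar2-/-, a difference of -0.40 (limma, unadjusted p below 0.05, adjusted p = 0.834). Sox4, for a transcription factor of neural progenitors, had a difference of -0.43 in the cluster that spans the gene on the minus strand and of -0.225 in an overlapping cluster on the plus strand, antisense to it, without an unadjusted p below 0.05 in limma. The minus-strand cluster had 7.41 and 7.32 in wild type and 7.20 and 6.67 in Adar2-/-. Its lowest value was on Adar2-/- replicate 2, the array with the lowest olfactory bulb markers, and the part of this in the difference was not tested.

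For the miR-16 family, 15 listed genes had 16 clusters, of which 13 were lower and 3 higher (16133 and 17164 over all clusters), with a median of -0.135. The median was below 0 in each alternative that could move it, from -0.23 to -0.1175. At an unadjusted limma p below 0.05, 4 were lower and 1 was higher (31.2%, against 5.95% of all clusters, 2.31% lower and 3.64% higher), and none had an adjusted p below 0.05. As the list was made with earlier results of these data known, this share is no independent support for a shift. Ccnd2, for the cell cycle regulator cyclin D2, had 9.90 and 9.69 in wild type and 9.37 and 9.27 in Adar2-/-, a difference of -0.475 (limma, unadjusted p below 0.05, adjusted p = 0.834). Wee1, for a kinase that delays mitosis, had a difference of -0.315 (unadjusted limma p below 0.05). E2f3 and Vegfa, named after their values were seen, were the other lower ones, and wild type replicate 1 was the highest array for all 4. The count moved with the arrays used: without wild type replicate 1 no cluster of this list had an unadjusted limma p below 0.05, without wild type replicate 2 there were 4, all lower, without Adar2-/- replicate 1 there was 1, a lower one, and without Adar2-/- replicate 2 there was 1, a higher one. In such fits the remaining array is assumed to vary like the other genotype, and calls over all clusters were fewer too (1221 to 1801, against 2009).

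Bcl2, for an inhibitor of apoptosis, had 2 clusters on opposite strands. The one on the minus strand, whose span covers that of the RefSeq gene to within a few bases, had 9.03 and 8.82 in wild type and 8.63 and 8.72 in Adar2-/-, a difference of -0.25 with no unadjusted limma p below 0.05. The one on the plus strand lies inside that span, antisense to the other. It had 4.21 on both wild-type arrays, within the Y-linked range, and 4.59 and 4.49 in Adar2-/-, a difference of 0.33 (unadjusted limma p below 0.05). The single higher call of the list was thus of this antisense cluster, which carries the symbol but does not report the mRNA.

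Npas4 and Serpinb1a were picked by the study on these same arrays, so their values here are no independent evidence of direction. For Npas4 the study also reported a separate RT-qPCR on brains of both genotypes, with less Npas4 in Adar2-/-. Npas4 had 9.59 and 9.81 in wild type and 8.90 and 8.85 in Adar2-/-, a difference of -0.825 (limma, adjusted p = 0.829). Serpinb1a had 6.12 and 6.25 in wild type and 5.37 and 5.17 in Adar2-/-, a difference of -0.915 (limma, adjusted p = 0.829). The study linked both transcripts to mature strands, which it measured by small-RNA sequencing. In Adar2-/- brain it reported more of the Mir335 strand predicted to target Npas4. It also reported less of a Mir497 strand there, with editing of Mir497 strands almost lost. Serpinb1a was predicted as a target of the other Mir497 strand in its unedited form only. On the arrays used here the Mir335 precursor differed by -0.06 and that of Mir497 by -0.40. These precursor signals measure neither mature strands nor editing, so the links of the study were not tested.

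**Figure D4:**
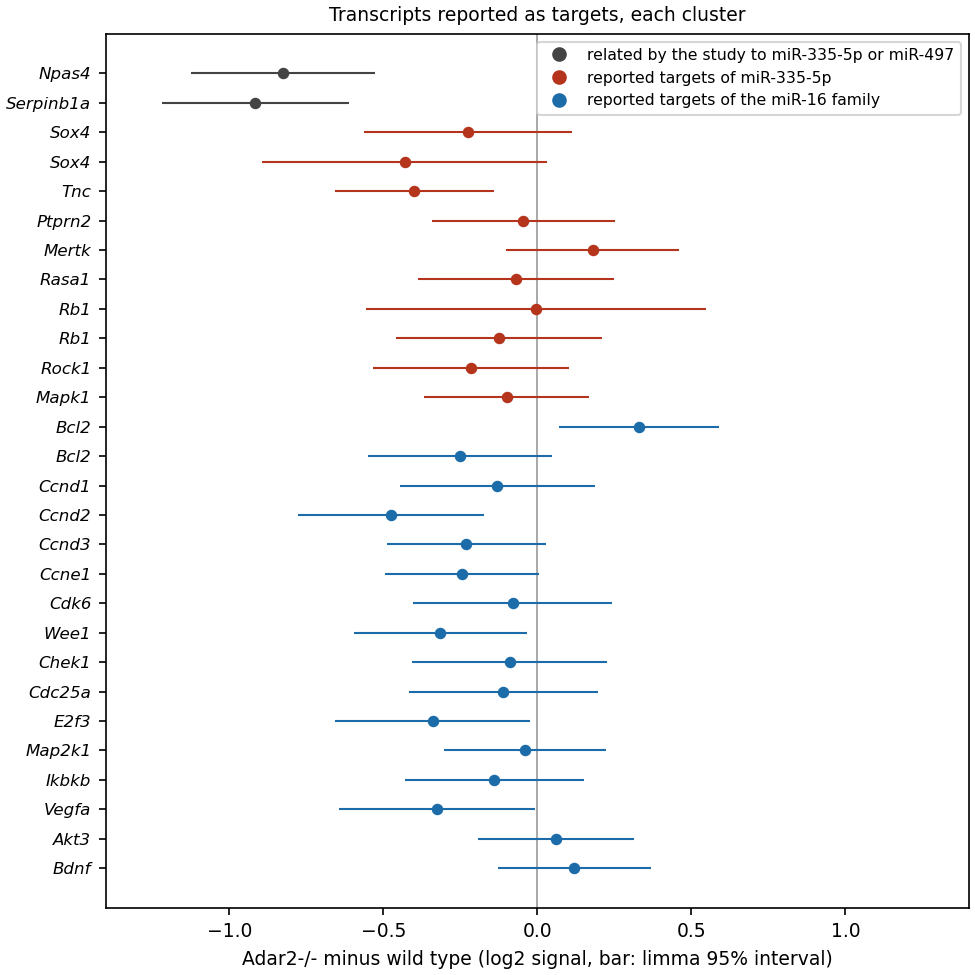
Log2 difference between Adar2-/- and wild type (x axis, bars are limma 95% intervals) of each cluster of Npas4 and Serpinb1a (dark), of reported targets of miR-335-5p (red) and of the miR-16 family (blue). Most points lie left of 0, and the intervals of Npas4, Serpinb1a, Tnc, Ccnd2, Wee1, E2f3 and Vegfa do not cross it, nor does that of the antisense Bcl2 cluster on the right.

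The clusters whose 4 values ran most like those of each member were searched among 15397 clusters with 1 symbol and a signal above the median, by the root-mean-square distance after centring each on its mean. For Mir497 these were Stox1 (0.026), A830009L08Rik (0.027) and BC030500 (0.029), and 21 clusters lay within 0.05. For Mir335 they were Ido2 (0.011), Rcor2 (0.011) and Mov10 (0.014), with 100 within 0.05. For Mest they were Scrib (0.007), Tesk1 (0.007) and Cox17 (0.008), with 989 within 0.05, and for Mir195 Dck (0.019), Rnf7 (0.021) and Abt1 (0.024), with 43. Likeness over 4 arrays is a description of these arrays.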

How the data were processed

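The table deposited by the authors holds normalized log2 signals, given to 2 decimals, for 33793 transcript clusters on 4 Affymetrix whole-transcript arrays (2 wild type, 2 Adar2-/-). The submitters' processing notes name Affymetrix Expression Console and RMA, which corrects background, quantile-normalizes and summarizes probes per cluster; it compresses differences near background. The table also holds the authors' own comparison (ratio, fold change and p), which was not used. Groups came from the sample titles.

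A linear model with genotype as its single term was fitted to all clusters (limma 3.58.1 under R 4.3.3, moderated by eBayes, two-sided, Benjamini-Hochberg adjustment), tested on simulated data. Shifts between 2 clusters were tested by exact permutation over arrays. Deviations of same-numbered arrays from their group means had a correlation of r = 0.0516 across clusters. This gave no sign of pairing but cannot exclude it, and the main fit was not paired. Alternatives were other scalings, the brighter clusters, a replicate block, other variance models and leaving out each array. Members and lists were chosen with earlier results of these data known. All members, the 3 clusters most like each, at most 3 clusters per list by lowest p, and Npas4, Serpinb1a and Adarb1 were named, besides precursors and genes described for their position and those said to be chosen after seeing values. No build is named for the file. RefSeq sequences on GRCm38.p6 were matched by name, and Mir322 and Mir503 matched no symbol of the file. With 2 arrays per genotype, precision is limited by their number.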

Additional observations from a re-analysis of the deposited data

How the results depend on the processing

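The direction of Mir497 was kept with each other scaling and on leaving out 1 array (-0.575 to -0.225), while the block and the other variance models cannot move it. A pooled-variance test without shrinkage lost the unadjusted call, as did 3 of the 4 leave-one-out fits. The other members had differences near 0 and turned sign: Mir335 ranged from -0.21 to 0.09, Mest from -0.025 to 0.095 and Mir195 from -0.305 to 0.115 on leaving out 1 array, and Mest was -0.005 with median centring. The count of members with an unadjusted limma p below 0.05 was 0 among clusters above the median signal, where the 3 precursors drop out, 0 in the pooled-variance test, and 0 to 1 on leaving out 1 array. Over all clusters, the pooled-variance test gave 15 with an adjusted p below 0.05 where limma gave 0, and leaving out 1 array gave 0. The unadjusted limma count of 2009 became 989 among the brighter clusters, where fewer were tested, and 1221 to 1801 on leaving out 1 array. The neighbours' median was -0.0325 (Mest) and -0.04 (Mir497) with median centring, and -0.0325 to 0.0525 and -0.035 to 0.035 on leaving out 1 array. With the replicate block, the difference of Mir497 was -0.40 with an unadjusted limma p below 0.05, and the block changed no call of a member. Bcl6b, 0610010K14Rik and Rnasek, added after seeing the data, kept their direction with each other scaling and on leaving out 1 array, but not their size (-0.295 to -0.135, -0.31 to -0.12 and -0.195 to -0.015 on leaving out 1 array). For the reported targets of the miR-16 family, the count of 5 at an unadjusted limma p below 0.05 became 7 with median centring or an intensity trend, 6 among the brighter clusters, 3 with the replicate block or cyclic loess and 0 to 4 on leaving out 1 array. For those of miR-335-5p, the count of 1 became 2 with median centring and 1 to 3 on leaving out 1 array. For the 7 non-member precursors, the count of 2 became 1 with quantile or cyclic loess normalization, among the brighter clusters or in the pooled-variance test, 3 with the replicate block, which added a lower one, and 0 to 3 on leaving out 1 array. For the imprinted genes, the count of 0 became 1 in the pooled-variance test and 0 to 3 on leaving out 1 array. The cause of these shifts was not tested. Signals near the Y-linked range limit Mir195 and the lowest array of Mir497.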
